A study of Mus musculus with 2 samples.

Results

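The genes described here are 9 genes of the carnitine shuttle and of the electron transfer flavoprotein, taken by name from the per-library gene counts: Cpt1a, Cpt1b, Cpt2, Slc25a20, Crat, Slc22a5, Etfa, Etfb and Etfdh. All 9 have an identifier among the 45706 genes in the count files, and 8 of them passed the filter on low values that 12026 genes passed. They were read in GFP-high sorted intestinal stem cells of the strain Lgr5-EGFP-IRES-creERT2. Its reporter allele makes a green fluorescent protein and a tamoxifen-dependent Cre recombinase under the control of Lgr5, a gene of crypt-base stem cells. The mice were 4 months old in both groups, and both carried the reporter allele. There was 1 library from mice with free access to standard chow (fed) and 1 library from mice labelled as fasting (fasted). The sources used here do not say how long the fast lasted or how many mice gave cells to a library.

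Long-chain fatty acids cannot cross the inner mitochondrial membrane as coenzyme A esters. Carnitine palmitoyltransferase 1 (CPT1), on the outer membrane, joins them to carnitine, the translocase encoded by Slc25a20 carries the acylcarnitine inward in exchange for free carnitine, and CPT2 on the inner membrane restores the coenzyme A ester. In the matrix the acyl-CoA dehydrogenases pass the electrons of the first oxidation step to the electron transfer flavoprotein (ETF), a dimer of the products of Etfa and Etfb, and the oxidoreductase encoded by Etfdh hands them to ubiquinone in the respiratory chain. CPT1 is inhibited by malonyl-CoA, the building block of fatty acid synthesis, and is regarded as the gate of the pathway. In the intestine, fasting is known to favour the use of fatty acids as fuel.

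The fed library held 6985316 counts and the fasted library 5020056 counts, and levels are given as counts per 1000000 (CPM), a unit in which a lone read is worth 0.143 and 0.199. With 1 library per group the difference between them has no replicate check and no test, and every interval below is a 95% interval for counting error alone. Crypt-base stem cell markers were detected in both libraries: Lgr5 stood at 484 CPM (fed) and 340.4 CPM (fasted), Olfm4 at 14373 and 8257 CPM, and all 15 listed markers were measured. Summed, the markers reached 22959 and 15264 CPM, with Olfm4 making up most of both sums. Over the 15 markers the scaled log2 ratio of fasted to fed had a median of -0.29. It ranged from -0.78 (Olfm4) to 0.10 (Ascl2), and Lgr5 stood at -0.49. In bulk samples of this kind, fewer cells of a type and less RNA per cell cannot be told apart.

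The genes of fatty acid entry and of electron transfer stood higher in the fasted library. Slc25a20, the translocase gene, was 4.90-fold above its fed level, Cpt1a 2.95-fold, Cpt2 2.56-fold, Etfb 2.52-fold and Etfdh 2.31-fold. Etfa (1.62-fold), Crat (1.55-fold) and the carnitine uptake gene Slc22a5 (1.30-fold) stood less than 2-fold above it, and Cpt1b was at the edge of detection in both libraries. A gene was called higher or lower when its size-factor-scaled ratio of fasted to fed reached 2-fold with an interval that did not include 1. By this rule 5 of the 8 measured members were higher, against 2.51% of all measured genes, and 0 were lower, against 1.91%. Among the 6158 genes in the abundance range of the measured members (a mean of 35.7 to 472 CPM), 63 were higher, which is 1.02%. At a threshold of 1.5-fold, 7 of 8 members were higher (background 5.11%), and at 3-fold only Slc25a20 was (background 1.03%). The members were chosen with earlier results of these data known, so these shares are a description and not a test.

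The median log2 ratio of the 8 members was 1.27, against -0.02 over all measured genes. Together the 6 shuttle genes made up 413 CPM of the fed and 1131 CPM of the fasted library, and their summed counts gave a log2 ratio of 1.48 (1.41 to 1.54). The 3 ETF genes made up 397 and 818 CPM, with 1.06 (0.99 to 1.13). In reads, the shuttle and ETF genes took near-equal parts of the fed library and unequal parts of the fasted one. These sums take no account of gene length, so they do not compare the levels of the 2 sets. Cpt1a alone made up 242 CPM of the fed and 702 CPM of the fasted shuttle sum.

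**Figure D1:**
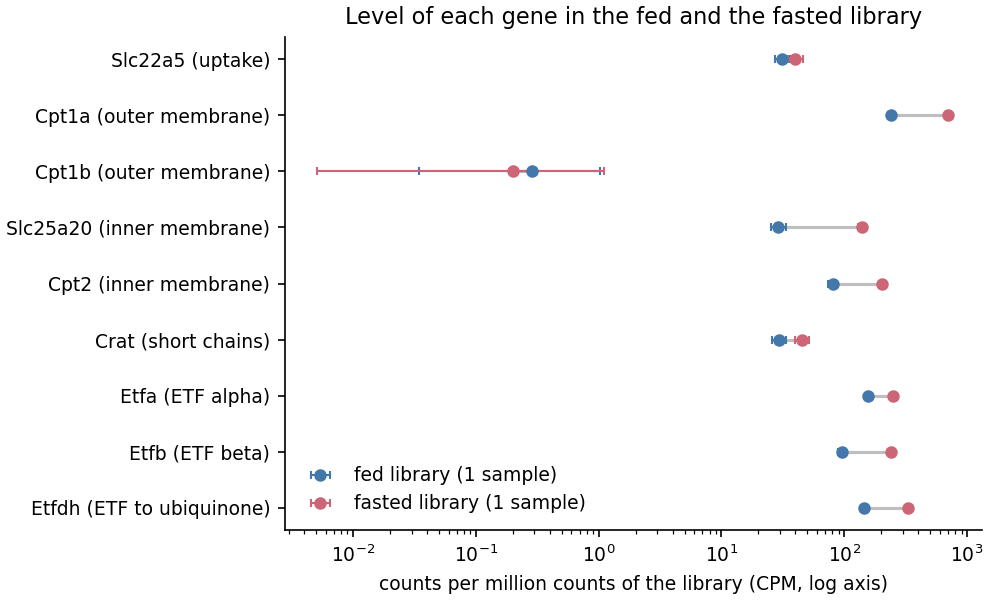
Level of each of the 9 genes in CPM (log axis) in the fed (blue) and the fasted (red) library, 1 library each; bars are exact 95% Poisson intervals for counting error. Of the 8 measured genes each lies further right in the fasted library, from Slc22a5 (31.4 and 40.0 CPM) to Cpt1a (242 and 702 CPM). The fed and fasted intervals overlap for Slc22a5 and, below 2 CPM, for Cpt1b.

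Carnitine enters the cell through the sodium-dependent transporter OCTN2, the product of Slc22a5 (chromosome 11, 53864542 to 53891660, minus strand, GRCm38). Slc22a5 was read 219 times in fed and 201 times in fasted cells, or at 31.4 and 40.0 CPM. Its log2 ratio was 0.37 (0.09 to 0.66), the smallest among the measured members, and 1568 of the measured genes had a larger one. The fasted library was the shallower, so fewer reads there gave the higher scaled level, and the call rule was not met.

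The counted CPT1 reads in both libraries came almost wholly from Cpt1a, the liver-type isoform gene (chromosome 19, 3322334 to 3385733, plus strand). Cpt1a gave 1689 reads (fed) and 3526 reads (fasted), which is 242 and 702 CPM. It was the most abundant member in reads in either library, and its log2 ratio of 1.56 (1.48 to 1.64) is the most precise of the 8. Cpt1b, the muscle-type isoform gene (chromosome 15, 89416405 to 89425863, minus strand), had 2 and 1 counts, or 0.286 and 0.199 CPM. Cpt1c, a form found mainly in brain, had 1 and 3 counts. All these values lie at or under a floor of 3 counts, so neither gene is given a ratio. Of the reads on the 3 CPT1 genes, Cpt1a took 99.82% in fed cells (exact binomial interval 99.48 to 99.96) and 99.89% in fasted cells (99.71 to 99.97).

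The Cpt1b count has a limit of its own. In GENCODE M21 81.4% of its exon bases lie also in exons of the same-strand gene Gm44502, which was not analysed here. Whether the authors' counting included that gene, and how it assigned shared reads, is not stated, and the part of the overlap in the low count was not tested. Muscle markers, from a tissue in which Cpt1b is the main form, were near 0: the 8 listed genes summed to 2.86 and 2.59 CPM, and Des, Ckm, Actc1 and Mb had no count in either. Tagln, the 1 of them that was measured, had 16 and 11 counts (-0.04, interval -1.30 to 1.16). Adipocyte markers summed to 0.286 and 0.398 CPM over 6 genes, with Adipoq, Plin1, Lep and Cfd at 0 in both.

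Slc25a20, the carnitine-acylcarnitine translocase gene (chromosome 9, 108662088 to 108684641, plus strand), differed most. Its reads numbered 203 in fed and 705 in fasted cells, or 29.1 and 140.4 CPM. The log2 ratio was 2.29 (2.07 to 2.53), and 42 of the 12026 measured genes had a larger one. In the fed library it had the lowest CPM of the measured members, close to Crat and Slc22a5, and in the fasted library it stood above both by more than their intervals.

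Cpt2, which completes the transfer on the matrix side (chromosome 4, 107903981 to 107923610, minus strand), had 563 and 1021 counts, or 80.6 and 203.4 CPM. Its log2 ratio was 1.36 (1.21 to 1.51). The translocase thus gained on both transferases: counts of Slc25a20 per count of Cpt2 were 0.361 (fed) and 0.691 (fasted), a log2 change of 0.94 (0.66 to 1.21), and per count of Cpt1a they were 0.120 and 0.200, a log2 change of 0.73 (0.49 to 0.98). Cpt1a per count of Cpt2 moved far less, from 3.0 to 3.45, a log2 change of 0.20 (0.03 to 0.38).

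Crat encodes carnitine acetyltransferase, which moves short acyl groups between coenzyme A and carnitine and so buffers acetyl-CoA rather than importing long chains (chromosome 2, 30400471 to 30415813, minus strand). It had 206 and 226 counts, or 29.5 and 45.0 CPM, with a log2 ratio of 0.63 (0.35 to 0.91). It did not meet the call rule. Genes on the opposite strand share 8.72% of its exon bases. Gm16323, which shares 411 bases, had 0 counts in both libraries, and Dolpp1, which shares 59 bases, had 343 and 304 counts of its own. No source used here gives the strand setting of the counting, so reads of the shared bases cannot be told apart.

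The subunits of the ETF dimer did not move in step. Etfa, the alpha subunit gene (chromosome 9, 55454508 to 55512243, minus strand), gave 1090 reads (fed) and 1247 reads (fasted), or 156.0 and 248 CPM, and a log2 ratio of 0.69 (0.57 to 0.81). Etfb, the beta subunit gene (chromosome 7, 43444083 to 43457800, plus strand), gave 669 and 1196 reads, or 95.8 and 238 CPM, with a log2 ratio of 1.34 (1.20 to 1.47). Reads of Etfb per read of Etfa were 0.614 (fed) and 0.959 (fasted), a log2 change of 0.64 (0.46 to 0.83). Per kilobase of exon the ratio of Etfb to Etfa was 0.968 (fed) and 1.51 (fasted): near equal in the former and in favour of Etfb in the latter. In GENCODE M21 58.2% of the exon bases of Etfb lie also in same-strand genes, chiefly Gm45233, which was not analysed here. Whether the authors' counting included that gene is not stated, and the part of this overlap in the difference was not tested.

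Etfdh, which passes the electrons on to ubiquinone (chromosome 3, 79603788 to 79629500, minus strand), had 1016 and 1665 counts, or 145.4 and 332 CPM. Its log2 ratio of 1.21 (1.10 to 1.32) exceeded that of Etfa by 0.52 (0.35 to 0.68) and differed from that of Etfb by less than the counting interval (0.13 lower, with an interval for Etfb minus Etfdh of -0.05 to 0.31).

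**Figure D2:**
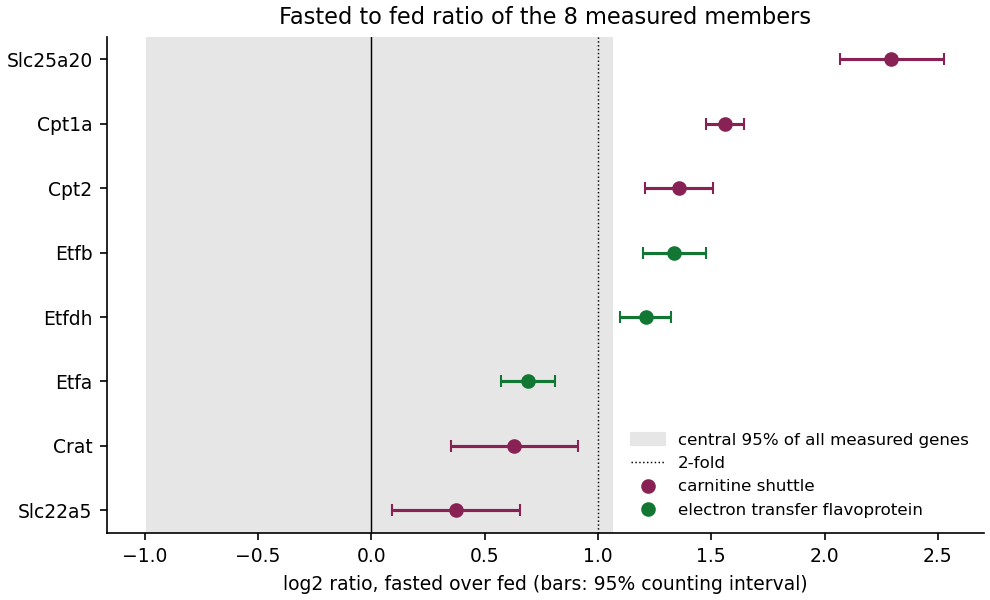
Log2 ratio of fasted to fed for the 8 measured members (points) with 95% counting intervals (bars), in order of size; the grey band spans the central 95% of all measured genes and the dotted line marks 2-fold. Slc25a20, Cpt1a, Cpt2, Etfb and Etfdh lie wholly right of the 2-fold line, whereas Etfa, Crat and Slc22a5 lie within the band.

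Ordered by ratio, the members ran Slc25a20, Cpt1a, Cpt2, Etfb, Etfdh, Etfa, Crat and Slc22a5. Of the 28 pairs, 23 differed in log2 ratio by more than their exact conditional interval for counting error, which was not adjusted for the number of pairs. The 5 pairs whose interval held 0 were Cpt2 and Etfb, Cpt2 and Etfdh, Etfb and Etfdh, Etfa and Crat, and Crat and Slc22a5. The counting intervals thus set Slc25a20 apart, then Cpt1a, then the group of Cpt2, Etfb and Etfdh, then Etfa, Crat and Slc22a5, in which Etfa exceeded Slc22a5 by 0.32 (0.01 to 0.63). The order within the last 2 groups depends on the processing. With the correction for exon length given in the closing section, Etfb (1.15) stood below Etfdh (1.29). Etfa (0.54) then stood below Crat (0.70) and nearer to Slc22a5 (0.34). Variation between mice, which would widen all these intervals, was not measured.

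**Figure D3:**
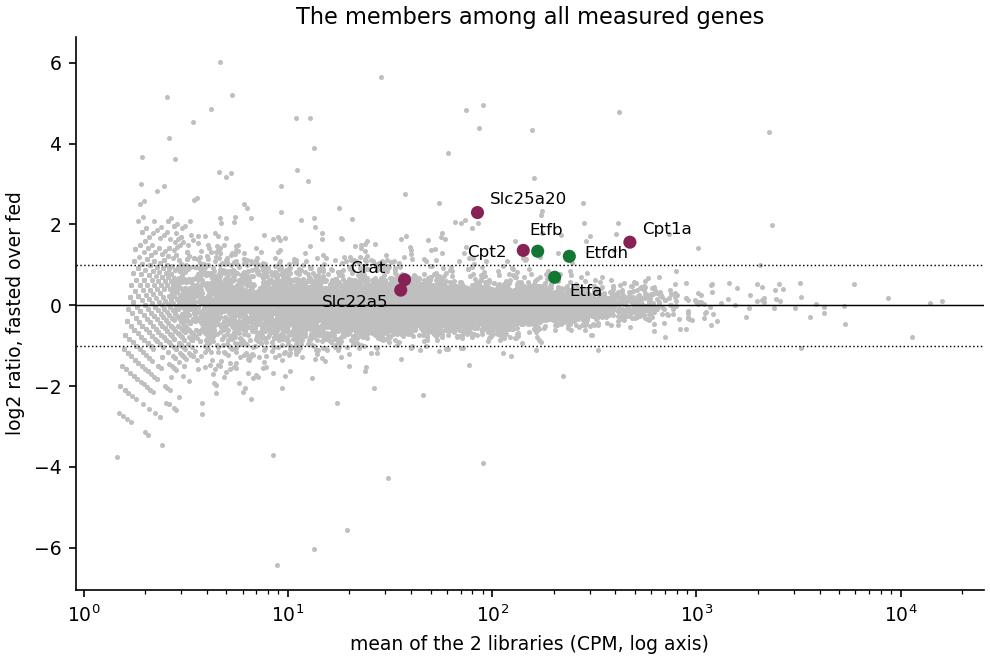
Log2 ratio of fasted to fed against the mean level of the 2 libraries (CPM, log axis) for the measured genes with counts in both libraries (grey) and the 8 measured members (shuttle in purple, ETF in green); dotted lines mark 2-fold. At the members' abundance the grey cloud is narrow, with 63 of 6158 genes higher, and 5 members lie above the upper dotted line.

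Levels of different genes can be compared only per length. Divided by the length of all annotated exons, the ETF subunits were the most abundant members in the fed library, at 85.0 CPM per kilobase for Etfa and 82.3 for Etfb, with overlapping intervals. Cpt2 (33.7) and Cpt1a (31.6) followed and also overlapped, then Etfdh (19.4), Slc22a5 (10.2), Slc25a20 (6.0) and Crat (5.47), the last pair again with overlapping intervals. In the fasted library Etfb led (205 CPM per kilobase), followed by Etfa (135), Cpt1a (91.9) and Cpt2 (85.1), whose intervals overlapped, then Etfdh (44.2), Slc25a20 (29.0), Slc22a5 (13.0) and Crat (8.36). Slc25a20 thus passed Slc22a5 between the libraries. Among all measured genes ranked the same way, Etfa and Etfb stood at percentiles 96.4 and 96.2 (fed) and 97.9 and 98.8 (fasted), while Slc25a20 went from percentile 38.3 to 84.1.

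The order depends on which transcripts set the length. With the basic transcript set, a choice made after seeing the data, the lengths of Etfdh (7505 to 2414 bases), Slc25a20 (4844 to 1783) and Cpt1a (7642 to 4317) shrink most. Etfdh then stood at 60.3 CPM per kilobase in fed and 137 in fasted cells, ahead of Cpt2 (34.0 and 85.7) in both. Slc25a20 stood at 16.3 and 78.8, above Slc22a5 in both libraries. Etfa and Etfb kept their places. The length used as divisor cancels out of the ratio of fasted to fed within a gene. A separate correction for a trend of the ratios with exon length, given in the closing section, moved members in both directions, Etfa and Etfb most.

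**Figure D4:**
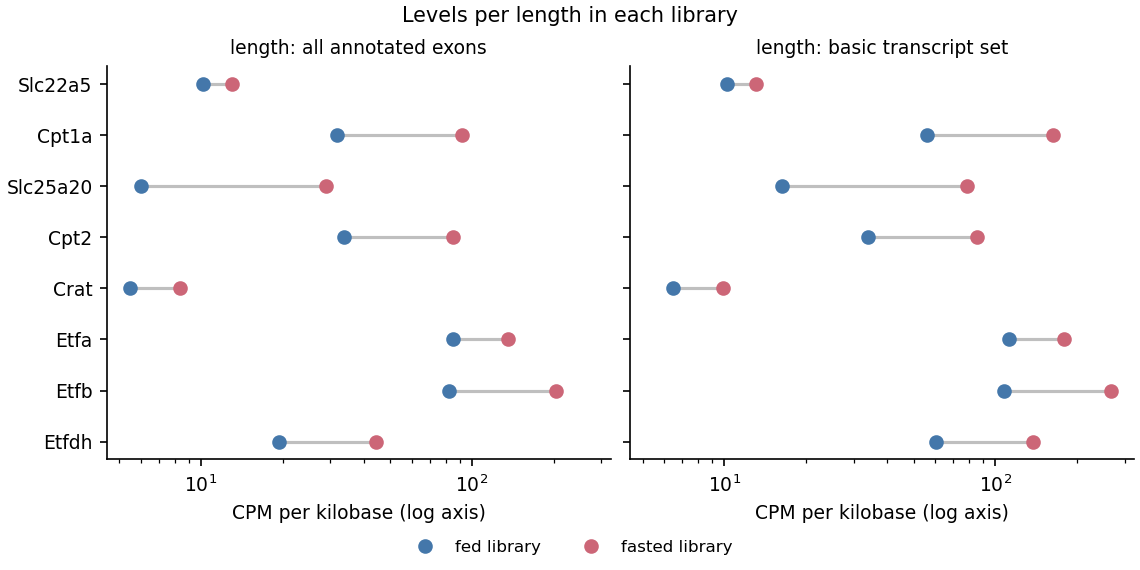
Level of the 8 measured members in CPM per kilobase (log axis) in the fed (blue) and fasted (red) library, with lengths from all annotated exons (left) and from the basic transcript set (right). The fed points of Etfa and Etfb nearly coincide (85.0 and 82.3 on the left), and Etfdh, Slc25a20 and Cpt1a shift right under the shorter lengths.

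RefSeq promoter windows, from 250 bases before to 50 after a start site in GRCm38.p6, were found for 7 of the 9 members, all but Cpt1b and Crat. They are shown for the translocase gene with the largest ratio, for the gate gene Cpt1a and for both ETF subunits, whose ratios differed. Each was searched on both strands for the nuclear receptor hexamer AGGTCA, for that hexamer repeated in the same direction with 1 base between the copies (direct repeat 1, the arrangement that PPAR and RXR, the fatty acid receptor and its partner, are known to bind), and for TCAAGGTCA, the element of the estrogen-related receptors, which contains the hexamer. Capitals mark a direct repeat 1 with at most 3 mismatches over its 12 fixed letters or an exact hexamer. The windows are chr9:108661886-108662185 (plus strand) for Slc25a20, chr19:3323051-3323350 (plus strand) for Cpt1a, chr9:55512194-55512493 (minus strand) for Etfa and chr7:43443822-43444121 (plus strand) for Etfb, each written 5′ to 3′ along its gene.
Slc25a20: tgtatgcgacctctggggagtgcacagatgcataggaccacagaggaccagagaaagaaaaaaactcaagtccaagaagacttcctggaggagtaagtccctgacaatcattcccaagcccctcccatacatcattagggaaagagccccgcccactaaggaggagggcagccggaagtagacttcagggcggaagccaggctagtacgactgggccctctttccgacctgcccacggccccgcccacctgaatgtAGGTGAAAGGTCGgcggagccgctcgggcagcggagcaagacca
Cpt1a: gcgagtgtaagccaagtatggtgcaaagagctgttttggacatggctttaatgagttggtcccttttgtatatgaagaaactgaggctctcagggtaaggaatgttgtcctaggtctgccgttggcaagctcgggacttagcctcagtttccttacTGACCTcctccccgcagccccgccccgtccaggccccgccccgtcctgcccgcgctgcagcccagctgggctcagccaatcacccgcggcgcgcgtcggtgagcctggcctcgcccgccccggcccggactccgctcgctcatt
Etfa: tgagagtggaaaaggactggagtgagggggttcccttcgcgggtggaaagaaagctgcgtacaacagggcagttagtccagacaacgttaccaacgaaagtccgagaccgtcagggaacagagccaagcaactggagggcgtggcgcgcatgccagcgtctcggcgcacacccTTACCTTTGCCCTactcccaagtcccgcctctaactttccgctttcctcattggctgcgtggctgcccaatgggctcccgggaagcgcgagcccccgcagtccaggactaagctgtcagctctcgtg
Etfb: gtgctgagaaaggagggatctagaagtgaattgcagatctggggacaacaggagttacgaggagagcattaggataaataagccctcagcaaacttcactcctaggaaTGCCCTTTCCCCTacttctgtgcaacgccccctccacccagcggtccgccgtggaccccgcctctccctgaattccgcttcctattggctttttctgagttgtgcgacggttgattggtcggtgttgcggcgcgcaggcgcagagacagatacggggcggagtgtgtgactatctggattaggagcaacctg

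The Slc25a20 window held a direct repeat 1 with 2 mismatches at positions 7 to 19 after the start site, on the strand of the gene. Etfa held one with 2 mismatches, on the opposite strand at -77 to -65, and Etfb one with 3 mismatches, also on the opposite strand, at -142 to -130. A repeat with at most 2 mismatches occurs in 3.86% of the 32851 promoter windows and one with at most 3 in 24.6%, so the Etfb match is common. The Cpt1a window held 1 exact hexamer, on the opposite strand at -94 to -89, as do 16.3% of windows in at least 1 copy, and no direct repeat. The windows of Cpt2, Etfdh and Slc22a5 held neither, and 0 of 7 member windows held the estrogen-related receptor element with at most 1 mismatch, which 7.46% of all windows hold. These are matches of letters in short windows and say nothing of binding.

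The other genes around the shuttle differed by step. Of the other carnitine acyltransferase genes, Crot, which acts on chains shortened in peroxisomes, gave 540 and 744 reads, and its log2 ratio of 0.96 (0.80 to 1.12) fell just short of the threshold. In carnitine synthesis Aldh9a1 had 0.81 (0.71 to 0.91), and Bbox1, which makes carnitine in the last step, was higher from few reads (17 and 28 counts, 1.22 with an interval of 0.30 to 2.18), while a further gene of that list was not analysed here. None of the 3 measured of 6 further carnitine transporter genes was called, and Slc22a21, the highest of them in CPM, had 0.27 (-0.15 to 0.68).

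Both sides of the malonyl-CoA switch on CPT1 were higher. Acacb, the carboxylase that makes malonyl-CoA at the mitochondrial surface, was read 59 times in fed and 568 times in fasted cells, a log2 ratio of 3.76 (3.38 to 4.18). Mlycd, the decarboxylase that removes it, had 166 and 284 reads, and 1.27 (0.99 to 1.56). Acaca, the carboxylase of cytosolic fatty acid synthesis, had 164 and 106 reads, and -0.13 (-0.50 to 0.23). The long-chain acyl-CoA synthetases, which supply CPT1 with substrate, had 0 of 4 measured genes called and a median of 0.24, with Acsl5, the highest in CPM, at 0.11 (0.01 to 0.22).

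Among the dehydrogenases that feed ETF, 3 of 13 measured genes were called higher and 0 lower (median 0.39). Acadl and Acadvl, which act on long chains, had 2.53 (2.40 to 2.66) and 1.73 (1.60 to 1.86), and Sardh, which oxidises sarcosine, was higher from 10 and 22 counts (1.64, interval 0.50 to 2.88). The genes for medium and short chains, Acadm and Acads, had 0.52 (0.37 to 0.67) and 0.71 (0.56 to 0.85), and Ivd and Gcdh, which serve amino acid breakdown, had -0.23 (-0.38 to -0.08) and 0.07 (-0.12 to 0.26); these 4 were chosen after their values were seen. As a sum, the 14 genes of this list went from 819 to 1552 CPM while Etfa, Etfb and Etfdh together went from 397 to 818 CPM. Most of the rise in the list came from Acadl (83.5 to 475 CPM) and Acadvl (102 to 334 CPM), so the sum does not describe the list as a whole. The later matrix steps of beta-oxidation had 5 of 8 genes higher and a median of 1.45, among them Eci2 (2.22), Hadhb (2.02), Acaa2 (1.76) and Hadha (1.76).

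Downstream and accessory steps stood nearer the fed level. The other dehydrogenases that reduce ubiquinone had 0 of 8 measured genes called and a median of 0.21, with Sdha of complex II, the highest in CPM, at -0.01 (-0.07 to 0.04), so that Etfdh at 1.21 lay above each of them (range -0.17 to 0.57). The choline dehydrogenase gene Chdh, entered in that list under a symbol that matched no gene and added after the data were seen, had 0.20 (0.08 to 0.32), and with it the median of 9 genes was 0.20. Ubiquinone synthesis had 1 of 11 higher, the methyltransferase gene Coq3 with 114 and 175 counts (1.12, interval 0.77 to 1.47), and a median of 0.14; Coq8a, the highest in CPM, had 0.41. Genes that supply FAD, the cofactor of ETF, or modify ETF had 0 of 7 called and a median of 0.44, with the riboflavin kinase gene Rfk at 0.44 (0.31 to 0.57). Over all measured genes 2.51% were higher and the median was -0.02.

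**Figure D5:**
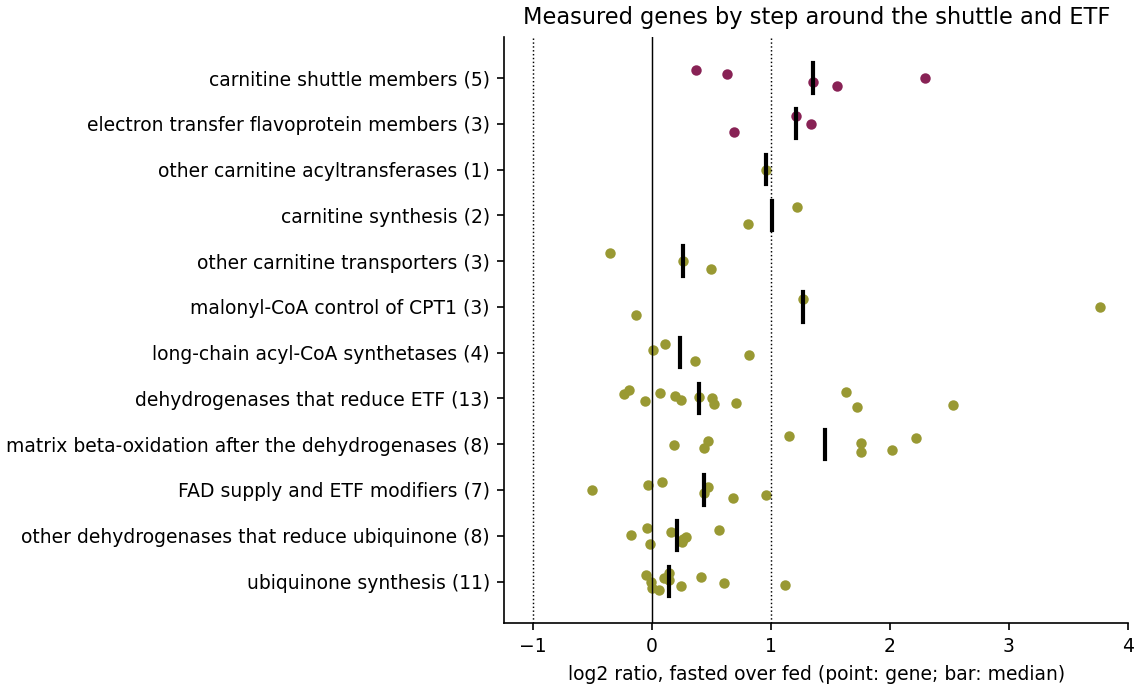
Log2 ratio of fasted to fed for each measured gene (points) of the members (purple) and of 10 lists of neighbouring steps (olive), with the median of each list as a black bar and the number of measured genes in parentheses; dotted lines mark 2-fold. The shuttle members (median 1.36), ETF members (1.21), malonyl-CoA genes (1.27) and late matrix steps (1.45) have medians beyond 2-fold, as have the 2 carnitine synthesis genes (1.01), while ubiquinone synthesis sits at 0.14.

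Markers of another cell type moved with these genes. Of 22 absorptive enterocyte markers, all measured, 13 were called higher and 0 lower (median log2 ratio 1.04), and none was at 0 in either library. Over all measured genes, against which the calls in this paragraph can be read, 2.51% were higher and 1.91% lower. Summed, they made up 2591 CPM of the fed and 3902 CPM of the fasted library, or 0.61 (0.58 to 0.64) as a log2 ratio, against 1.29 (1.24 to 1.34) for the summed members. The list ranged from Slc15a1 (2.5), Apoa1 (2.33), Slc6a19 (2.13) and Fabp2 (1.71) to Vil1, its highest gene in CPM, at -0.01 (-0.08 to 0.06). Goblet cell markers summed to 637 and 1244 CPM, with 3 of 8 higher: the secreted lectin gene Zg16 (1.63), the trefoil factor gene Tff3 (1.59) and Fcgbp (1.36), the highest of the list in CPM. Paneth cell markers summed to 1109 and 967 CPM, with a median log2 ratio of -0.31. The matrix metalloproteinase gene Mmp7 (2.07) was the 1 of 8 called higher and the only one with a positive ratio. The lysozyme gene Lyz1, the highest in CPM, stood at -0.08 (-0.18 to 0.02). The part of these cell types in the ratios of the 9 genes was not tested. Markers of fibroblasts and endothelium summed to 1.15 and 0.199 CPM and those of immune cells to 13.2 and 6.77 CPM, with the macrophage marker Cd68 lower from 25 and 6 counts (-1.56, interval -3.14 to -0.24) and Itgam, the highest in CPM, at -0.76. Enteroendocrine cell markers summed to 25.2 and 22.9 CPM, with 0 of 3 measured genes called. Their log2 ratios ran from -0.86 to 0.21, with Chgb, the highest in CPM, at 0.16. Tuft cell markers summed to 12.03 and 8.76 CPM, with 0 of 2 called and Trpm5 at -0.77.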

How the data were processed

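RNA sequencing libraries, 1 fed and 1 fasted, came from 1 ug of total RNA of sorted cells (Illumina TruSeq), per the labels' protocols. The deposited counts are whole, unnormalised reads per Ensembl gene. FastQC, STAR, HTSeq and DESeq, GRCm38 and mm10 are named without versions or roles, per the submitters' processing notes; neither the annotation nor the strand setting is given in the sources used. A deposited table holds as signal these counts divided by 1 factor per library (1.19 and 0.842), which the median-of-ratios factors computed here matched (100% of values within 0.0051).

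Symbols, places and exon lengths came from GENCODE M21 (GRCm38; 45143 of 45706 IDs matched) and promoter sequences from RefSeq (GRCm38.p6). Genes with a mean of at least 1 CPM and at least 20 summed counts were called measured. Ratios carry exact 95% Clopper-Pearson intervals of the fasted share of reads, CPM exact Poisson intervals, and differences between genes exact conditional intervals (scipy 1.17.1), all for counting error only. With 1 library per group no count model was fitted and no p-value is given. The procedure was tested on simulated counts that held counting error only. That test cannot judge the calls against variation between mice or libraries. A floor of 3 counts was set, which equals 0.429 CPM at the fed depth of 6985316 counts and 0.598 CPM at the fasted depth of 5020056 counts. All 9 members are named, and from each other list the called genes (at most 4, by size of ratio), the highest in mean CPM, and every measured gene of lists under 5; further genes are marked as chosen after their values were seen or stand as markers at 0. The members and lists were chosen with earlier results of these data known. Alternatives were TMM and upper-quartile factors (edgeR 4.0.16), total counts with and without Olfm4, the deposited table, other low-count filters and thresholds, basic transcript lengths and a correction for exon length (running median over 500 genes). 1 listed symbol for choline dehydrogenase was wrong, so its gene, Chdh, was added as an alternative, and 1 gene of carnitine synthesis was not analysed here.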

Additional observations from a re-analysis of the deposited data

How the results depend on the processing

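With total counts, TMM or upper-quartile factors, the authors' normalised table, other low-count filters or the length correction, 5 members were higher and 0 lower, and likewise when the whole interval had to lie beyond 2-fold. At 1.5-fold 7 members were higher, and at 3-fold 1 was, as a stricter threshold must give. The scalings moved every log2 ratio by -0.03 to 0.02, the lower end being total counts without Olfm4, chosen after seeing the data. The length correction brought Etfa from 0.69 to 0.54 and Etfb from 1.34 to 1.15, both outside their counting intervals, and the median of the measured members to 1.22, with 0 calls lost. The balance of ETF genes depended on length: per read, Etfb to Etfa was 0.614 (fed) and 0.959 (fasted), and Etfdh to the mean of Etfa and Etfb was 1.16 and 1.36, against 0.232 and 0.260 per kilobase of all exons and 0.549 and 0.617 with basic transcript lengths. The direction of change between the libraries was the same in each. No paired analysis was possible because each group has 1 library, and for the same reason no library could be left out. At this depth Cpt1b and Cpt1c could not be compared between the libraries.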
